A study of Mus musculus with 6 samples.

Results

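The transcripts described here encode the V(D)J recombination machinery of developing lymphocytes: the recombinase genes Rag1 and Rag2, Dntt, which encodes terminal deoxynucleotidyl transferase (TdT), and 7 genes of classical non-homologous end joining (Xrcc5, Xrcc6, Prkdc, Dclre1c, Xrcc4, Lig4 and Nhej1). They were taken by gene symbol, 10 of the 54752 genes of the FPKM table, and all 10 entered the tests, which covered the 12576 genes whose input averaged 1 FPKM or more. FPKM are fragments scaled to transcript length and to the size of the library, a scale per length on which levels of different genes can be set side by side.

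The data are RNA immunoprecipitation sequencing (RIP-seq) of FLAG-tagged LIN28B, an RNA-binding protein of fetal cells, in B cell progenitors grown from adult mouse bone marrow. 2 tet-LIN28B mice expressed 1 allele of Col1a tetO-LIN28B, a doxycycline (Dox)-inducible human LIN28B cDNA with a FLAG tag in the Col1a locus, and carried Rosa26 rtTA*m2, the Dox-dependent activator. The control was 1 littermate heterozygous for Rosa26 rtTA*m2, so that all mice carried the activator. Cells of each mouse were grown for 5 days in IL-7 at 20 ng/mL with Dox, so both genotypes received the drug, and each mouse gave an input (RNA of the lysate) and an anti-FLAG IP, 6 libraries in all. Fractions follow the sample titles and the table's column names, which match each other. The free-text descriptions of the samples end with the other fraction (IP for a library titled input, and the reverse), and if those were right, input and IP would change places throughout and every IP/input ratio would be inverted. Where 3 values are given in a row, they are those of tet-LIN28B mouse 1, tet-LIN28B mouse 2 and the control. The driver is not restricted to B cells, the cultures were started from whole marrow, and the control IP holds no FLAG-tagged protein, which makes it the background of the IP.

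V(D)J recombination assembles immunoglobulin genes from V, D and J segments. RAG1 and RAG2 together cut DNA at recombination signal sequences, which leaves hairpin-sealed coding ends. The Ku heterodimer (XRCC5 and XRCC6) binds the ends and recruits the kinase DNA-PKcs (PRKDC), the nuclease Artemis (DCLRE1C) opens the hairpins, TdT adds untemplated nucleotides to heavy chain junctions, and XRCC4, XLF (NHEJ1) and DNA ligase IV join the ends. Dntt is characteristic of adult B lymphopoiesis and low in the fetal wave, in which LIN28B is naturally present, and Rag genes are active in pro-B cells and again in small pre-B cells.

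LIN28 proteins recognise GGAG in the loop of let-7 precursors, and GGAG was therefore counted in the sense strand of each transcript (GENCODE M21; all positions given are of GRCm38). For the 4 members whose IP differed from the input in the tet-LIN28B mice, the first stretch of 30 coding bases within an exon that holds the most GGAG is shown, with GGAG in capitals and all bases read 5′ to 3′ along the mRNA.
Dntt (chr19:41037269-41037298, plus strand, higher in the IP): gaatgcatgGGAGctgggaagccagtGGAG
Lig4 (chr8:9973639-9973668, minus strand, higher in the IP): gcacttcaaGGAGtttttggattcgtGGAG
Rag2 (chr2:101629450-101629479, plus strand, lower in the IP): gctggcctaagagatcctgtcctactGGAG
Dclre1c (chr2:3437975-3438004, plus strand, lower in the IP): GGAGctggttcGGAGctgggtcactaGGAG
The tetramer is common: over whole transcripts, untranslated parts and exon junctions included, 16.3% of all 30-base windows held at least 1. On that measure 82.3% of transcripts had a window with 2 or more, and 37.7% one with 3 or more. The windows shown were sought only in coding bases within an exon, so their counts cannot be set directly against these shares. Of the windows shown, that of Dclre1c holds 3 copies, those of Dntt and Lig4 hold 2 and that of Rag2 holds 1.

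The cultures carried the transcripts of B cell progenitors. The 8 markers of that list summed to between 11160 and 14238 FPKM in the inputs, and none of the marker lists had a gene at 0 in all 3 inputs. Markers of other lineages were detected too. The highest one of myeloid cells, S100a9, was at 3770.2, 2355 and 3335 FPKM. The highest T cell marker, Trbc2, was at 65.2, 22.0 and 21.9 FPKM, and Nkg7 of NK cells was at 40.9, 16.0 and 19.2 FPKM, while the NK receptor genes Ncr1 and Klrb1c and the perforin gene Prf1 did not exceed 1.37 FPKM in any input. Tet-LIN28B mouse 1 thus stood apart in T cell markers, whose sum was 121 FPKM there and 38.7 and 37.8 FPKM in the others. Cd4 and Ptcra, at no more than 1.21 FPKM, were not highest in mouse 1. The sum of the myeloid markers was also highest in mouse 1, at 7426, 4645 and 6394 FPKM. Of 4 markers of plasmacytoid dendritic cells 3 were above the control in both tet-LIN28B inputs, against 28.6% of all genes tested. These were Siglech (11.2, 7.58 and 4.92 FPKM), Tcf4 (35.9, 28.4 and 22.2 FPKM) and Ccr9 (3.52, 2.32 and 1.66 FPKM), while Bst2 (120, 149 and 128 FPKM) was not among them. The median log2 input difference of the list was 0.53, and none of its genes passed (limma, adjusted p = 0.835 to 0.954). Prss34 of basophils (38.6, 30.6 and 35.1 FPKM) and the endothelial gene Pecam1 (10.8, 9.91 and 12.0 FPKM) differed less between mice. Hba-a1 of red cells was at 39.4, 22.9 and 9.73 FPKM, with the other markers of that list at no more than 2.39 FPKM, while the stromal collagens Col1a1 and Col1a2 did not exceed 0.02 FPKM in any input.

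In the inputs the members spanned a wide range of levels. Xrcc6 was highest, with a mean of 173 FPKM over the 3 inputs, followed by Dntt at 51.6, Rag2 at 14.1, Rag1 at 10.9, Xrcc4 at 8.02, Lig4 at 6.83, Dclre1c at 6.65, Xrcc5 at 4.70, Nhej1 at 4.54 and Prkdc at 1.67 FPKM. The libraries of Lig4 and Dclre1c, of Dclre1c and Xrcc5, and of Xrcc5 and Nhej1 overlapped, so those neighbours cannot be ordered, whereas the other neighbours did not overlap. The mRNAs of the Ku partners, whose proteins work as a heterodimer, stood far apart in this order.

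**Figure D1:**
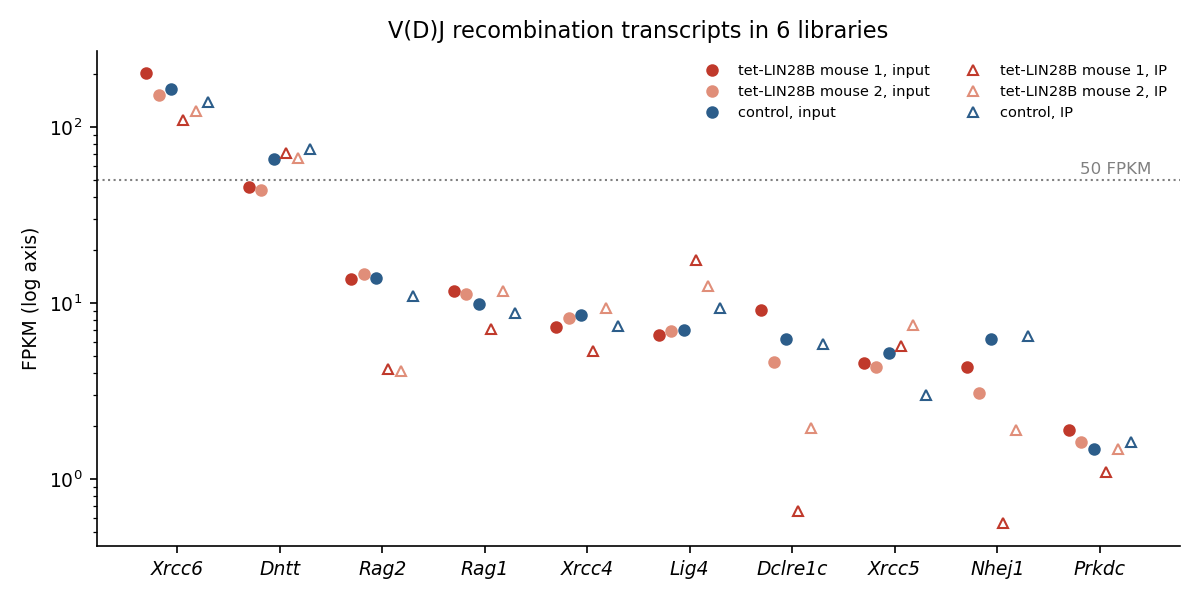
FPKM (log axis) of the 10 V(D)J recombination transcripts in each input (filled circles) and each anti-FLAG IP (open triangles), with the members ordered by mean input. Xrcc6 lies above 50 FPKM in all libraries, both tet-LIN28B inputs of Dntt lie just under that line, and the tet-LIN28B IPs of Rag2 (4.20 and 4.12 FPKM) lie below its control IP (10.9 FPKM).

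The first question was whether the level of these transcripts differed between tet-LIN28B and control cultures. With limma, 0 of 12576 genes passed an adjusted p of 0.05 in this comparison (percent called 0), among them 0 of the 10 members. At an unadjusted p under 0.05, 680 genes differed in either direction, and 1 member, Dntt, was lower, against a background of 3.19% of all genes lower. With 2 mice against 1, the fit had 1 residual degree of freedom per gene, the spread came largely from all genes together, and the spread of the control was assumed to equal that of the other genotype.

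No input difference was called for the recombinase transcripts. The inputs of Rag1, which encodes the catalytic subunit that cuts the DNA, were at 11.7, 11.2 and 9.86 FPKM. Both tet-LIN28B values lay slightly above the control, with a log2 difference of 0.20 (SE 0.15, adjusted p = 0.849). For Rag2, which encodes its obligate partner, the inputs were at 13.7, 14.7 and 13.9 FPKM, so the control lay between both tet-LIN28B mice. The log2 difference of Rag2 was 0.03 (SE 0.15, adjusted p = 0.970). These differences, like all others here, are on the log2(FPKM + 1) scale, which understates changes of low genes.

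Dntt was the member with the clearest separation of the inputs. TdT is the polymerase behind N additions, and its mRNA was at 45.6, 43.7 and 65.5 FPKM. Both tet-LIN28B mice lay below the control, and they differed from each other by far less than from it. The mean of the tet-LIN28B inputs was 44.6 ± 1.29 FPKM (SD, n = 2), or 0.681 of the control. The log2 difference was -0.54 (SE 0.12), at the 5.68th percentile of all genes tested, and it did not pass adjustment over all genes (limma, unadjusted p = 0.0203, adjusted p = 0.835). Leaving out either tet-LIN28B mouse gave -0.57 and -0.52. In bulk RNA, fewer Dntt-positive cells and less Dntt mRNA per cell cannot be told apart.

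Markers of B cell stages were set beside Dntt. None of them passed in the inputs (limma, adjusted p = 0.593 to 0.835 for the small pre-B cell markers). All 5 small pre-B cell markers (Il2ra, Cd2, Igkc, Irf4 and Spib) were below the control in both tet-LIN28B inputs, 4 of them at an unadjusted p under 0.05, with a median log2 difference of -0.64. Their summed level was 3419, 4005 and 5573 FPKM, most of it from Igkc. Il2ra, which encodes CD25, was at 5.27, 5.50 and 12.8 FPKM. Of the 5 pro-B cell markers (Kit, Vpreb1, Igll1, Flt3 and Erg), 0 were below the control in both tet-LIN28B inputs and 3 were above it, with a median log2 difference of 0.10 and sums of 4528, 5131 and 4662 FPKM. Of the 8 B cell progenitor markers, 6 were below the control in both tet-LIN28B inputs and 1 was above it. Their median log2 difference was -0.26. Lower inputs were thus not confined to the small pre-B cell markers. Over all genes tested, 40.5% were below the control in both tet-LIN28B inputs and 28.6% were above it. At an unadjusted p under 0.05 (limma), 3.19% were lower. The median log2 input difference of all genes was -0.04. The part of the culture's make-up in the lower Dntt level was not tested.

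Among the end-joining genes the inputs did not separate in one direction. For Nhej1, which encodes XLF, the inputs were at 4.34, 3.08 and 6.21 FPKM, a log2 difference of -0.63 (SE 0.26, adjusted p = 0.835). The other end-joining genes had log2 differences between -0.19 for Xrcc5 and 0.16 for Prkdc (SE 0.16 to 0.45). Both tet-LIN28B inputs lay below the control for 5 members (Dntt, Lig4, Xrcc4, Xrcc5 and Nhej1) and above it for 2 (Rag1 and Prkdc), against 40.5% and 28.6% of all genes tested. These counts are near what all genes gave and are no result about the members.

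**Figure D2:**
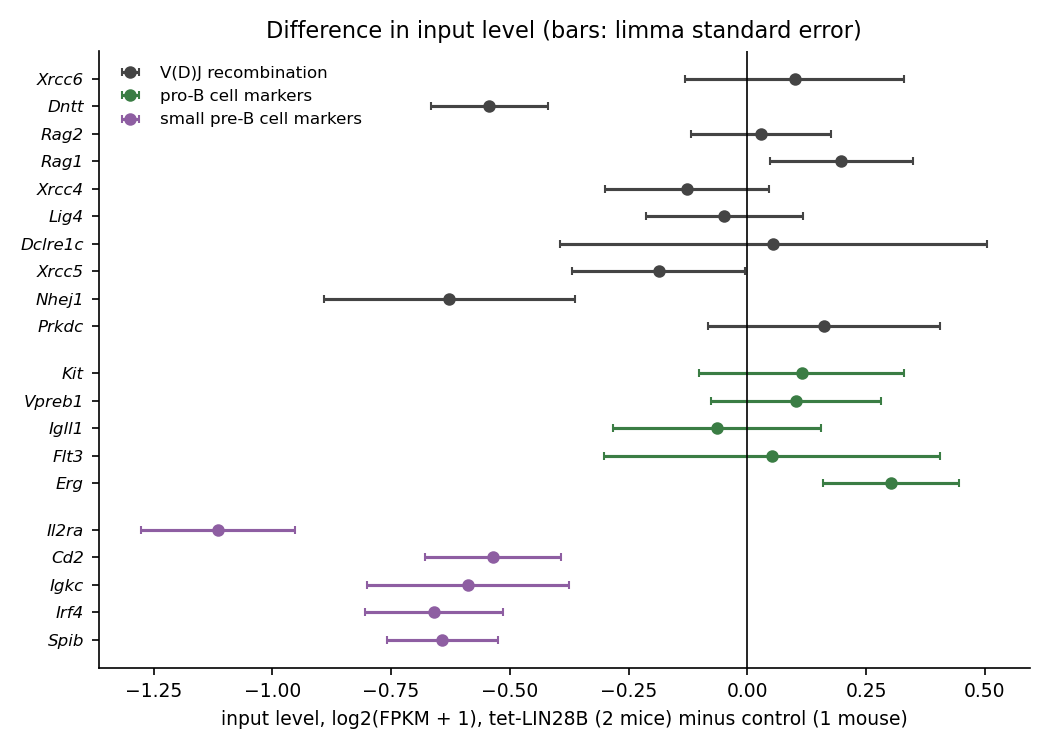
Difference in input level, as log2(FPKM + 1) of the mean of 2 tet-LIN28B mice minus 1 control, for the 10 V(D)J recombination genes (grey), 5 pro-B cell markers (green) and 5 small pre-B cell markers (purple), with bars for the limma standard error. Dntt at -0.54 and Nhej1 at -0.63 lie in the range of the small pre-B cell markers, while the pro-B cell markers and the other members lie around 0. None of these differences passed adjustment over all genes.

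The second question was which of these transcripts were recovered with FLAG-LIN28B. The IP/input ratio was taken within each mouse, and the test used log2((IP + 1)/(input + 1)). The median log2 ratio of all genes tested was -0.38, -0.23 and 0.04, so a ratio under 1 was the usual state of a transcript in the tet-LIN28B IP. In the tet-LIN28B mice 2 members were higher in the IP than in the input (Lig4 and Dntt), against 13.9% of all genes tested, and 2 were lower (Rag2 and Dclre1c), against 31% of all genes tested. Over all genes 1750 were higher and 3900 lower, and 2908 and 2979 when each mouse was centred on its median, with these 4 members called in the same direction and Xrcc5 called higher as well. For the difference between tet-LIN28B and control ratios 0 of 10 members passed, against 0.382% of all genes higher and 2.53% lower. Without the filter on low inputs none of the 4 calls held (adjusted p = 0.106 to 0.233), and without the trend that of Dntt did not (adjusted p = 0.0554). At an unadjusted p under 0.05, Xrcc5 was higher and Rag2 lower in the comparison with the control, against 6.4% of all genes tested higher and 23.3% lower. The member counts are again close to those of all genes, so the values of each transcript carry the description.

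**Figure D3:**
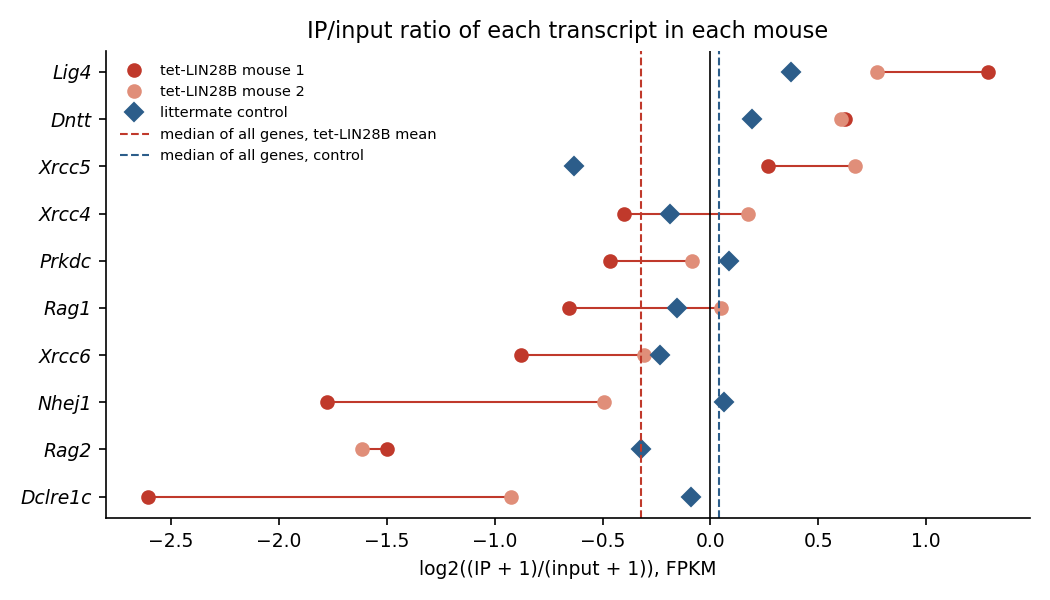
Log2((IP + 1)/(input + 1)) of each transcript in tet-LIN28B mouse 1 and mouse 2 (circles joined by a line) and the littermate control (blue diamonds), with dashed lines at the medians of all genes tested. Both tet-LIN28B mice lie above the control for Lig4, Dntt and Xrcc5 and below it for Prkdc, Xrcc6, Nhej1, Rag2 and Dclre1c.

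Of the recombinase partners, Rag2 was called lower in the tet-LIN28B IP and Rag1 was not called. The IPs of Rag2 were at 4.20, 4.12 and 10.9 FPKM, and its IP/input ratios were 0.306, 0.280 and 0.787. Both tet-LIN28B mice gave nearly the same ratio, well under that of the control, with a mean of 0.293 ± 0.0181 (SD, n = 2). On the log2 scale the IP was lower than the input by -1.56 (SE 0.18, adjusted p = 0.00563), at the 12.6th percentile of all genes tested. Set against the control the log2 difference was -1.24 (SE 0.32, adjusted p = 0.0913), which did not pass. Rag2 was the member with the smallest adjusted p in both comparisons.

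For Rag1 the mice overlapped. Its IPs were at 7.07, 11.6 and 8.75 FPKM and its ratios were 0.603, 1.04 and 0.887, so the control lay between both tet-LIN28B mice, and the mean of 0.821 ± 0.308 (SD, n = 2) did not differ from 1 beyond the spread (log2 -0.30, SE 0.24, adjusted p = 0.349). Relative to the median of all genes its value was 0.000642, so Rag1 lay at the median. Whether Rag1 and Rag2 differed from each other was not tested. The genes lie next to each other on chromosome 2 in opposite orientation (GRCm38, Rag1 at 101638282-101649501 on the minus strand and Rag2 at 101624718-101632529 on the plus strand). Both share exon sequence with B230118H07Rik, 80 bases on the same strand for Rag1 and 208 bases on the opposite strand for Rag2. The library kit does not keep the strand, so reads from those bases cannot be assigned to 1 gene. They make up 0.503% of the 50-base stretches of Rag1 and 4.77% of those of Rag2.

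The Dntt transcript was recovered above its input in every mouse. The IPs were at 70.8, 67.0 and 74.9 FPKM, which gave ratios of 1.55, 1.53 and 1.14. Both tet-LIN28B ratios lay above the control and close to each other (mean 1.54 ± 0.0163, SD, n = 2). The IP was higher than the input by 0.61 on the log2 scale (SE 0.16, adjusted p = 0.0344), at the 84.7th percentile of all genes tested, but the difference from the control, 0.42 (SE 0.27, adjusted p = 0.355), did not pass. The IP levels of the 3 mice were close, and the higher ratio in tet-LIN28B goes with the lower input level. Dntt lies on chromosome 19 (GRCm38, 41029275-41059525, plus strand), and no exon of another gene overlaps it.

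Of the Ku subunits, the abundant mRNA and the scarce one had mean tet-LIN28B ratios on opposite sides of 1. Xrcc6, which encodes Ku70 (chr15:81987835-82040085, plus strand), was at 202, 153 and 164 FPKM in the inputs and at 109, 123 and 139 FPKM in the IPs. Its ratio was under 1 in all mice, 0.541 and 0.805 in tet-LIN28B and 0.848 in the control. The log2 ratio of -0.59 (SE 0.20, adjusted p = 0.0715) did not pass among all genes tested. It passed when tested only among genes whose input averaged 10 FPKM or more (adjusted p = 0.0435) or among those kept by the study's filter of 50 FPKM (adjusted p = 0.000993), but the difference from the control did not pass in any of these fits.

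Xrcc5, which encodes Ku80 (chr1:72307421-72394952, plus strand), was at 4.58, 4.32 and 5.20 FPKM in the inputs and at 5.72, 7.46 and 3.0 FPKM in the IPs. The ratios of 1.25 and 1.73 in tet-LIN28B were above 1 and that of the control, 0.577, was below it. Xrcc5 had the highest difference from the control among the members, 1.10 on the log2 scale (SE 0.38, adjusted p = 0.142), at the 95.3rd percentile of all genes tested. The ratio itself, 0.47 (SE 0.22, adjusted p = 0.142), did not pass, and relative to the median of all genes it was 0.77 with an adjusted p of 0.0266. At these levels of a few FPKM the control value rests on 1 library with unknown depth.

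The mRNAs for hairpin opening were scarce, and that of Artemis differed widely between the tet-LIN28B mice. Prkdc (chr16:15637866-15842235, plus strand), which encodes the kinase DNA-PKcs and is the longest member with a transcript of 12647 nt, was at 1.90, 1.63 and 1.47 FPKM in the inputs and at 1.10, 1.48 and 1.62 FPKM in the IPs. Its ratios were 0.579 and 0.908 in tet-LIN28B and 1.10 in the control, and the log2 ratio of -0.28 (SE 0.25, adjusted p = 0.412) did not pass. Dclre1c, which encodes Artemis (chr2:3424131-3464130, plus strand), was at 9.10, 4.60 and 6.24 FPKM in the inputs and at 0.66, 1.95 and 5.81 FPKM in the IPs. Mouse 1 had both the highest input and the lowest IP, so its ratio was 0.0725, while that of mouse 2 was 0.424 and that of the control 0.931. Mouse 1 also had the highest sums of T cell and of myeloid markers, whose part in this value was not tested. Dclre1c was lower in the IP by -1.76 on the log2 scale (SE 0.44, adjusted p = 0.0330), the lowest value among the members, and without mouse 1 it was -0.92 and without mouse 2 -2.61. With a pseudocount of 0.1 in place of 1 the adjusted p was 0.0602. The difference from the control was -1.68 (SE 0.77, adjusted p = 0.227).

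The ligation complex split into a transcript above its input and others at or under it. Lig4, which encodes the ligase that seals the junction, had the highest ratio of all members. It was at 6.60, 6.89 and 7.01 FPKM in the inputs, which hardly differed, and at 17.5, 12.5 and 9.39 FPKM in the IPs. The ratios were 2.66 and 1.81 in tet-LIN28B and 1.34 in the control, so every mouse was above 1 and both tet-LIN28B mice were above the control. The mean of 2.23 ± 0.599 (SD, n = 2) was at the 93.0th percentile of all genes tested on the log2 scale (1.03, SE 0.22, adjusted p = 0.0210), and the difference from the control was 0.65 (SE 0.37, adjusted p = 0.311). Lig4 lies on chromosome 8 (GRCm38, 9969049-9977686, minus strand), and no exon of another gene overlaps it.

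Xrcc4, which encodes the scaffold of the ligase (chr13:89774027-90089608, minus strand), was at 7.32, 8.19 and 8.55 FPKM in the inputs and at 5.31, 9.37 and 7.39 FPKM in the IPs. Its ratios of 0.725 and 1.14 in tet-LIN28B enclosed that of the control, 0.864, and the log2 ratio of -0.11 (SE 0.23, adjusted p = 0.708) did not pass. The IPs of Nhej1 (chr1:74967139-75125200, minus strand) were at 0.56, 1.90 and 6.52 FPKM. Its ratios were 0.129 and 0.617 in tet-LIN28B and 1.05 in the control, and on the log2 scale mouse 2 lay closer to the control than to mouse 1. The log2 ratio of -1.13 (SE 0.37, adjusted p = 0.0627) and the difference from the control of -1.19 (SE 0.63, adjusted p = 0.280) did not pass. The ligase thus had a mean ratio of 2.23, its scaffold one of 0.935 and XLF one of 0.373, although the proteins act in 1 complex. Whether these ratios differed from each other was not tested.

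Counted without a test, the log2 ratio of both tet-LIN28B mice lay above the control for 3 members (Lig4, Dntt and Xrcc5), against 24.7% of all genes tested, and below it for 5 (Rag2, Xrcc6, Dclre1c, Prkdc and Nhej1), against 60% of all genes tested. The median log2 ratio of the members was -0.29 in tet-LIN28B and -0.12 in the control, beside -0.32 and 0.04 over all genes tested. The members as a group lay where transcripts in general lay.

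The study's own rule keeps a gene when both fractions of both tet-LIN28B mice reach 50 FPKM. It calls a kept gene when the mean ratio is above 2. Applied here, 238 of 1460 kept genes passed (16.3%). The paper states a slightly different number of kept genes and the same 238. Xrcc6 was the only member kept, and 0 members passed. Dntt had more than 50 FPKM in both IPs and missed the filter through its inputs of 45.6 and 43.7 FPKM, and its mean ratio of 1.54 lay under the threshold. Lig4, with a mean ratio above 2, had inputs far below 50 FPKM. No member passed when the threshold was lowered to 1.5, the filter to 10 FPKM, or the geometric mean was used, each changed alone. With threshold and filter lowered together Dntt would pass, at a mean ratio of 1.54 and inputs of 45.6 and 43.7 FPKM. That combination was not among the alternatives run, and the share of all genes passing it was not counted, so it is no result about Dntt.

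Genes that work beside the members were described through 6 lists with 49 genes tested. In the tet-LIN28B IP 6 of them were higher and 10 lower than the input, against 13.9% and 31% of all genes tested. List medians are to be read against those of all genes, -0.32 in tet-LIN28B and 0.04 in the control. None passed against the control (limma, lowest adjusted p = 0.0792), while 4 were higher and 8 lower at an unadjusted p under 0.05, against 6.4% and 23.3% of all genes tested. None passed in the inputs, where 3, Polm and H2afx among them, were lower at an unadjusted p under 0.05, against 3.19% of all genes tested.

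Among the 6 recombinase cofactors, 1 was higher in the tet-LIN28B IP and 1 lower. Dnttip2, which encodes a TdT-interacting protein, had a mean ratio of 1.64 ± 0.308 (SD, n = 2, adjusted p = 0.0381) and a control ratio of 0.623. Hmgb2, whose protein bends DNA for the recombinase, had a mean ratio of 0.666 ± 0.0213 (SD, n = 2, adjusted p = 0.0406) and a control ratio of 0.868. The list's median log2 ratio was 0.26 in tet-LIN28B and -0.16 in the control.

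Accessory end-joining factors were low in the IP for 4 of 9 genes, and 0 of 9 were higher. Polm encodes DNA polymerase mu, the closest relative of TdT. Its mRNA was at 6.22, 5.13 and 13.8 FPKM in the inputs, a log2 difference of -1.16 (limma, unadjusted p = 0.00895, adjusted p = 0.741). Polm, like Dntt, was thus below the control in both tet-LIN28B inputs. The same held for 5 of the 9 genes of this list, Polm included, and for 40.5% of all genes tested. In the IPs Polm was at 0.63, 1.28 and 11.2 FPKM, and the mean ratio was 0.175 ± 0.105 (SD, n = 2, adjusted p = 0.00870). The Ku-binding factors Cyren and Paxx, at 0.313 and 0.460, were lower too (adjusted p = 0.00870 and 0.0292). The highest mean ratio in this list was 1.68 ± 0.177 (SD, n = 2) for Ercc6l2, with an adjusted p of 0.0520.

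Break signalling genes were split, with 3 of 12 higher and 3 lower. The kinase gene Atm had the highest mean ratio, 2.10 ± 0.547 (SD, n = 2, adjusted p = 0.0271), and the control ratio was also above 1, at 1.56. Rnf8 and Rad50 were higher with mean ratios of 1.69 and 1.57 (adjusted p = 0.0273 and 0.0401). Chek2, Trp53 and H2afx, which encode the checkpoint kinase 2, p53 and the histone H2A.X, were lower with mean ratios of 0.314, 0.337 and 0.549 (adjusted p = 0.0110, 0.0132 and 0.0392). The median log2 ratio of the list was 0.15 in tet-LIN28B and 0.14 in the control.

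In the alternative end-joining list 2 of 7 were higher and 0 lower. The flap endonuclease gene Fen1 had a mean ratio of 2.47 ± 0.556 (SD, n = 2, adjusted p = 0.00919) and a control ratio of 1.19. Xrcc1, which encodes the scaffold of DNA ligase III, rose from 74.3 and 63.0 FPKM in the tet-LIN28B inputs to 154 and 146 FPKM in the IPs. Its mean ratio was 2.20 ± 0.170 (SD, n = 2, adjusted p = 0.00820) with a control ratio of 1.28, and it was the only gene of the 6 lists to pass the study's rule. The lowest value, 0.693 ± 0.135 (SD, n = 2), belonged to Rbbp8, with an adjusted p of 0.0929.

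Homologous recombination genes had 0 of 8 higher and 1 lower. That gene was Xrcc3, with a mean ratio of 0.258 ± 0.0189 (SD, n = 2, adjusted p = 0.0280) and a control ratio of 1.72. Its levels were low, at 2.66, 1.66 and 3.13 FPKM in the inputs and 0.65, 0.45 and 5.39 FPKM in the IPs. Brca1 had the highest mean ratio, 1.59 ± 0.299 (SD, n = 2, adjusted p = 0.114), nearly that of the control, 1.56. Of 7 regulators of the Rag genes 0 were higher and 1 was lower, the repressor gene Gfi1b. Its mean ratio was 0.211 ± 0.125 (SD, n = 2, adjusted p = 0.0267) and its control ratio 1.26. Gfi1b too was low, at 1.87, 2.54 and 3.02 FPKM in the inputs and 0.56, 0.31 and 3.82 FPKM in the IPs. Myb had the highest value, 1.40 ± 0.470 (SD, n = 2, adjusted p = 0.169). Foxo1, which encodes the main activator of Rag transcription, was at 20.6, 21.8 and 21.7 FPKM in the inputs, a log2 difference of -0.03 (limma, unadjusted p = 0.824).

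**Figure D4:**
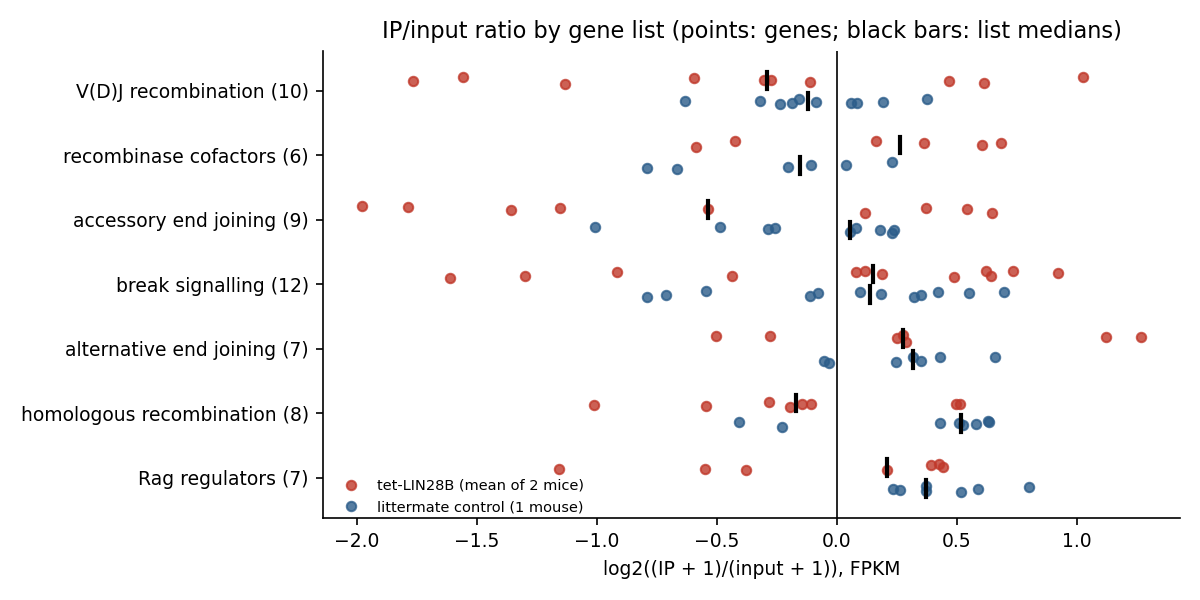
Log2((IP + 1)/(input + 1)) of the V(D)J recombination genes and of 6 lists of related genes (number tested in parentheses), for the mean of 2 tet-LIN28B mice (red) and the littermate control (blue), with black bars at the list medians. The recombination genes reach from -1.76 for Dclre1c to 1.03 for Lig4 in tet-LIN28B and from -0.63 for Xrcc5 to 0.38 for Lig4 in the control.

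The members differed in length and composition. Transcript lengths ran from 1053 nt for Nhej1, whose locus is fragmented in this annotation, to 12647 nt for Prkdc, beside a median of 2439 nt over the 12515 genes tested with a transcript model. Across these genes, which are not independent replicates, longer transcripts had higher ratios in both genotypes (Spearman rho = 0.355 in tet-LIN28B and 0.375 in the control). Lig4 (5028 nt) followed this order, but the longest members, Prkdc (12647 nt) and Rag1 (6608 nt), had log2 ratios of -0.28 and -0.30 in tet-LIN28B. Those values lay at the 51.8th and 50.7th percentiles of all genes tested. Rag2 (3424 nt) was longer than Dntt (2130 nt) and had the lower ratio. The length of Nhej1 (1053 nt) is uncertain because of its fragmented locus, so its place in this order cannot be read. GC content ran from 40.5% for Rag2 to 53.2% for Xrcc6, with a median of 49.8% over all genes, and its rho was -0.18 in tet-LIN28B and 0.11 in the control.

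GGAG density was no higher in the 2 members called above their input than in the 2 called below it. Density was not tested between them, and 0 of 10 members passed against the control. The density was 5.16 per kb in Dntt and 3.78 per kb in Lig4, which were higher in the IP. It was 5.84 per kb in Rag2 and 9.32 per kb in Dclre1c, which were lower, beside a median of 6.82 per kb over all genes. Xrcc6, with 11.5 per kb, had the densest transcript and Xrcc5, with 2.35 per kb, the sparsest. Across all genes the rho of this density with the ratio was 0.02 in tet-LIN28B and 0.09 in the control, and 97.9% of transcripts held the tetramer at least once. Exons of Xrcc4 and Xrcc6 overlap genes on the opposite strand, Tmem167 over 112 bases and Desi1 over 344 bases, and 4.49% and 9.15% of their 50-base stretches are shared.

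**Figure D5:**
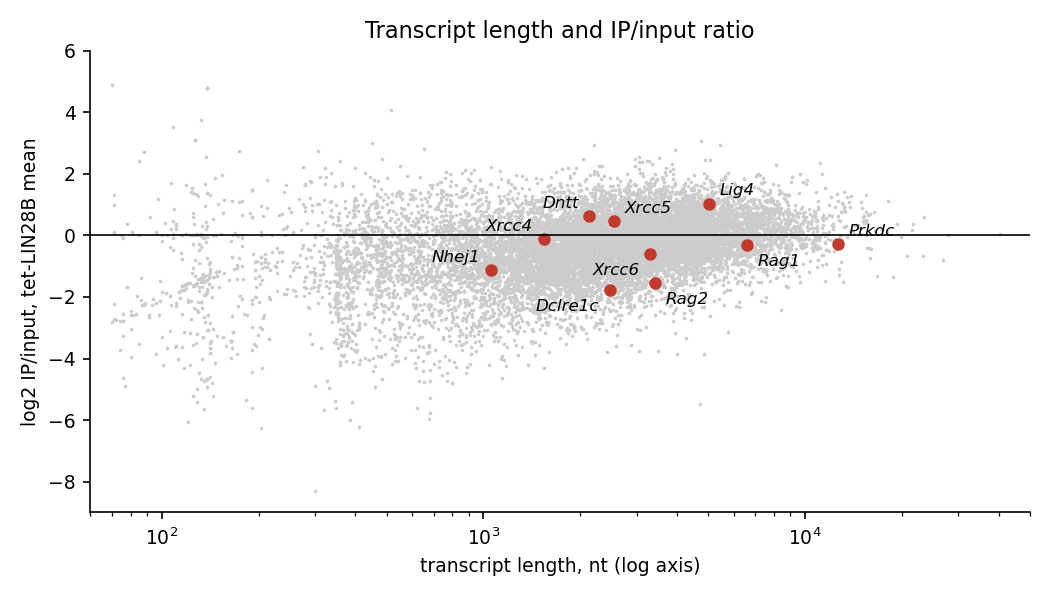
Transcript length (log axis, nt) against the mean log2 IP/input ratio of the 2 tet-LIN28B mice for 12515 genes tested (grey points), with the 10 V(D)J recombination genes in red. The members lie within the cloud of all genes, with Lig4 at 1.03 in its upper part and Dclre1c at -1.76 and Rag2 at -1.56 in its lower part.

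Genes with the most similar pattern were sought for the lymphocyte-specific members, by Pearson's r of log2(FPKM + 1) over the 6 libraries among the 6343 genes whose input averaged 10 FPKM or more. For Rag2 they were Sirt2, Vkorc1 and Rsl1d1, each with r = 0.999. For Rag1 they were Dpagt1 (r = 0.982), Casp8ap2 (0.956) and Exo5 (0.947), and for Dntt Smarcd2 (0.989), Dnajc11 (0.974) and Mkrn1 (0.968). The libraries are 3 pairs from 3 mice, the highest values were picked from all of these genes, and the likeness is a description. The genes picked differed between Rag1, Rag2 and Dntt, which is no result, as only 3 of the 6343 genes were kept for each.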

How the data were processed

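Input and anti-FLAG IP were analysed for 2 tet-LIN28B mice and 1 control. The authors prepared poly-A libraries with a SMART-Seq and Nextera XT workflow and deposited FPKM values, made with STAR 2.7.1 and RSEM 1.28 on mm10 according to the submitters' processing notes. Without counts the depth of a library cannot be known, and intervals for counting error cannot be given. FPKM sums ran from 1144870 to 1384940 per library, and 0 of 15 library pairs held identical values. The labels give Dox at 0.1 mg/mL and the methods give the same number in micrograms per mL, so the sources disagree and the dose is not settled. Input and IP were assigned by sample title and column name, against the last line of the sample descriptions.

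Values were fitted with limma 3.58.1 in R 4.3.3, with a trend on mean level, for genes with an average input of 1 FPKM or more. Inputs were compared as log2(FPKM + 1). The IP/input ratio was log2((IP + 1)/(input + 1)) within a mouse, so the mouse is a block, and it was tested against 0 and against the control (Benjamini-Hochberg, threshold 0.05). IP and input come from the same culture. Across genes, how mouse 1 differed from mouse 2 in the input correlated at 0.132 with how it did so in the IP. The labels call the mice biological replicates, the paper once technical ones. The scripts were tested on simulated data.

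The members and the gene lists were chosen with earlier results of these data known. Named were all members, of each list the genes with the highest and lowest mean ratio and those past a test, and the highest marker of each other cell type. Foxo1 and Il2ra were named in addition, with their values known. Some values of the lists are not reported here. Models and sequences are those of GENCODE M21 and GRCm38 (12515 of 12576 genes matched), read with Python 3.11.15 and samtools 1.23.1. Alternatives changed the pseudocount, filter, scaling, centring, trend, block and the study's rule, and left out each tet-LIN28B mouse.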

Additional observations from a re-analysis of the deposited data

Results flagged for a closer look

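The IP/input ratio differed between tet-LIN28B and control beyond the threshold for some genes in the analysis as reported, none of them a V(D)J recombination gene. Over all genes tested, limma called 48 higher and 318 lower in tet-LIN28B minus control, from 2 mice against 1, and 68 higher and 188 lower when each mouse was centred on its median. On the TPM scale the calls were 78 higher and 595 lower, and none remained with a pseudocount of 0.1, without the filter on low inputs, without the trend or without the replicate block, so these counts depend on the processing. Among the recombination genes Rag2 came closest, with a log2 difference of -1.24 and an adjusted p of 0.0913.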

How the results depend on the processing

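The calls rest on 2 tet-LIN28B mice and 1 control with unknown depth, and on a spread shared between genes. Over the alternatives with a test, 170 values of single members kept their direction and side of the threshold, 6 lost a call, 3 gained one and 5 turned sign. For IP/input in tet-LIN28B, 0 members were higher and 0 lower without the filter on low values, as for all genes (0 and 0), with an adjusted p of 0.106 for Rag2, 0.107 for Dntt, 0.142 for Lig4 and 0.233 for Dclre1c. Members called higher were 1 without the trend (Dntt lost, at an adjusted p of 0.0554), 1 with inputs of at least 10 FPKM and 0 under the study's 50 FPKM filter, which leave out Lig4 or both Lig4 and Dntt, and members called lower were 1 with a pseudocount of 0.1 (Rag2), 1 under the 50 FPKM filter (Xrcc6) and 2 with inputs of at least 10 FPKM (Rag2 and Xrcc6, as Dclre1c was left out). All genes called higher were 2908 after centring and 522 under the 50 FPKM filter, and 512 were called lower there, from fewer genes tested. Centring on the median of all genes, which lay at -0.30 in tet-LIN28B, turned the ratios of Rag1 (0.000642), Xrcc4 (0.192) and Prkdc (0.0292), and in the difference from the control that of Rag1 (0.194). Scaling to TPM turned that of Xrcc4 (-0.0714).

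In the inputs, all genes called were 13 higher and 5 lower with inputs of at least 10 FPKM and 18 higher and 14 lower after centring, against 0 in the analysis as reported, and 0 members were called in any of these. For the difference between tet-LIN28B and control ratios, all genes called were 0 higher and 0 lower with a pseudocount of 0.1, without the filter and without the trend, 300 higher and 1130 lower with inputs of at least 10 FPKM, 78 higher and 595 lower on the TPM scale, 188 lower after centring and 339 higher under the 50 FPKM filter. The cause was not tested where none is named. Without the replicate block, which pairs IP and input of a mouse, 0 genes were called higher and 0 lower in this difference, and the calls of the members did not change. With 1 tet-LIN28B mouse left out there was no test, and 53 of 60 values of the members kept their sign, the others being uncalled values of Rag1, Xrcc4, Rag2, Dclre1c and Xrcc6. The input difference of Dntt then ran from -0.57 to -0.52, and the log2 ratio ran from -1.62 to -1.50 for Rag2, from 0.60 to 0.63 for Dntt, from 0.77 to 1.29 for Lig4, from -0.66 to 0.05 for Rag1 and from -2.61 to -0.92 for Dclre1c.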
